A study of Mus musculus with 2 samples.

Results

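Cells with genes of natural killer (NK) cells, called NK cells below, were found inside a sort made for dendritic cells. They were 103 of the 4086 cells kept from the L-cDC library, or 2.52% (exact 95% interval 2.06 to 3.05%), and 0 of the 5848 cells kept from the M-cDC library, where a floor of 3 counts allows a share of up to 0.0513% and the exact (Clopper-Pearson) upper bound is 0.0631%. Together the libraries held 9934 kept cells out of 11613 deposited barcodes. A cell was taken as NK from its own unique molecular identifiers (UMIs, each standing for 1 captured transcript): at least 3 of Nkg7, at least 2 of Ncr1, Klrb1c and Gzma together, none of Gzmc, Cd3e or Xcr1, and at most 2 of Fscn1. These 8 genes chose the cells, so their levels below are descriptions and support nothing. None of the 8 is in the list of markers of type 1 innate lymphoid cells (ILC1) used below. NK is therefore the name of the gate, and whether some members are ILC1 was not tested.

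Both libraries came from spleens of untreated (naive) mice, 7 to 9 weeks old, that carried Il7r-cre with Rosa26-lsl-tdTomato. The cells were enriched with beads for CD11c and then sorted as tdTomato+ cells (L-cDC, set up to hold dendritic cells of lymphoid origin) and tdTomato- cells (M-cDC). In this reporter, Cre made from the Il7r gene removes a stop before tdTomato, so a cell that once used Il7r, and the descendants of that cell, stay labelled. Each sort gave 1 library, the number of mice in it is not given in the sources used here, and cells of 1 library are not replicates. Hence no test and no p-value is given, and every interval covers counting error only.

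NK cells are lymphocytes that kill infected or transformed cells without a rearranged antigen receptor. They read a balance between activating receptors and inhibitory receptors for MHC class I, empty granules of perforin and granzymes onto a target, and secrete interferon-gamma and chemokines, some of which call in dendritic cells. In the mouse spleen they mature from a CD27+ to a CD11b+ stage, and part of the receptor repertoire, the Ly49 family, is switched on in some cells and not in others.

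The promoters of 5 genes are shown because they carry the account that follows. Ncr1 is a gene of the gate, Xcl1 is a chemokine read by cDC1, and Gzma, Gzmb and Il7r differed in level among the NK cells. Each runs 5′ to 3′ from 250 bases before to 50 bases after the start given by RefSeq (GRCm38.p6), at chr7:4337465-4337764 on the plus strand for Ncr1, and on the minus strand at chr1:164935473-164935772 for Xcl1, chr13:113100932-113101231 for Gzma, chr14:56262285-56262584 for Gzmb and chr15:9529827-9530126 for Il7r. The GENCODE coordinates of Gzmb given below begin downstream of its whole window. Ncr1 had 2 RefSeq entries, and the first was used. Capitals mark the Runx core TGTGGT or its reverse complement ACCACA, and the T-box core GGTGTGA or TCACACC, names of the families of Runx3 and of Eomes and Tbx21.
Ncr1: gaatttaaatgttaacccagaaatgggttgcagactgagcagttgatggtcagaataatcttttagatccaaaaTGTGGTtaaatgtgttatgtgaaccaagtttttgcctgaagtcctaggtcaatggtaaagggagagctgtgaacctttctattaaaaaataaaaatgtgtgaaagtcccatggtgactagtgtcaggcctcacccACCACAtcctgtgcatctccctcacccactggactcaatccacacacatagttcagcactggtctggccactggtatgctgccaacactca
Xcl1: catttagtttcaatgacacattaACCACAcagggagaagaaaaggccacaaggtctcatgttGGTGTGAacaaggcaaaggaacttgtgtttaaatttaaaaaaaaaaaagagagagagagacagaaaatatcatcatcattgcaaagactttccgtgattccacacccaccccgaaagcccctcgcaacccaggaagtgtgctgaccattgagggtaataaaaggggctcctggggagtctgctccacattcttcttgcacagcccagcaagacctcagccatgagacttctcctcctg
Gzma: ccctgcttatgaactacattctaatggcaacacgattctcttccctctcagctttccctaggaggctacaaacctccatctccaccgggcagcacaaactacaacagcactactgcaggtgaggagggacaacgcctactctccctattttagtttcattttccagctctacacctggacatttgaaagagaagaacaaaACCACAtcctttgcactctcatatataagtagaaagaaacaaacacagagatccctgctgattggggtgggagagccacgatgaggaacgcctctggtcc
Gzmb: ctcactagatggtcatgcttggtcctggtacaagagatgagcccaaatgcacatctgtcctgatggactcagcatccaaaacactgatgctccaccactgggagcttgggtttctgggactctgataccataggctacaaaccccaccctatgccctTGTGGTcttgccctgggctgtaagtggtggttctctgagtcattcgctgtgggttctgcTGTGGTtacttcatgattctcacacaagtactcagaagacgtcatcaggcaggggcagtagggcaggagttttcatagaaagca
Il7r: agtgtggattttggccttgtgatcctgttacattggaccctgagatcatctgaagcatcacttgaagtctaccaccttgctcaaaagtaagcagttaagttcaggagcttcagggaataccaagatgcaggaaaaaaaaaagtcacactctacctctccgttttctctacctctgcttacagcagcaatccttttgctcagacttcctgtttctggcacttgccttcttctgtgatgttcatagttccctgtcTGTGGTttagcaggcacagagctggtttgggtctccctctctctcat
A Runx match stood in 5 of the 5 windows, with 2 each in Ncr1 and Gzmb, and a T-box match in that of Xcl1 alone. Among all 32851 promoters of the same length, 16.8% held the Runx letters and 3.98% the T-box letters. A match is a run of letters and no evidence of binding.

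The genes of the gate are described first and genes outside it after them. Nkg7, a granule membrane protein, had 4 to 88 UMIs per NK cell with a median of 14. Ncr1, the activating receptor NKp46, was found in 97.1% of NK cells (91.7 to 99.4%), Klrb1c, which encodes NK1.1, in 86.4% and Gzma in 57.3%. In Xcr1+ cDC1 of the same library, which should lack all 4, the shares were 4.15% for Nkg7, 2.30% for Ncr1, 1.84% for Klrb1c and 2.76% for Gzma, although cDC1 were deeper, with a median of 16440 UMIs against 7522 in NK cells. Outside the rule, Il2rb was detected in 94.2% of NK cells and 2.30% of cDC1, and Klrd1 in 99.0% and 21.2%. Genes of conventional dendritic cells were mixed in level. Zbtb46, a factor of these cells, had 2 UMIs in all NK cells and Clec9a had 4, while Xcr1 was absent by rule. H2-Aa, H2-Ab1, H2-Eb1 and Cd74 together had 0 to 574 UMIs per NK cell, with a median of 6. The whole list is given below.

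The limits of the gate were close to few cells. Only 6 NK cells had 3 to 5 UMIs of Nkg7, and 3 other cells failed on Nkg7 alone with 1 or 2 UMIs. By the receptor sum, 6 members had 2 or 3 UMIs and 4 cells failed on it alone. The limits on Xcr1 and Fscn1 alone kept out 21 cells, which therefore stand among the other kept cells, and 26 members had 1 or 2 UMIs of Fscn1. The presence of Gzmc or Cd3e alone kept out 30. In M-cDC, 1 cell missed the gate only through 3 UMIs of Fscn1, with 19 UMIs of Nkg7, 143 of Gzma and 8076 in all. Xcl1 and Gzmc had 0 UMIs in all kept M-cDC cells.

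The 103 NK cells held 970077 UMIs, 3177 to 32997 per cell, with a median of 2230 genes and 3.63% mitochondrial UMIs. They were set beside 60 cytotoxic lymphocytes of the same library, chosen by Nkg7 with Gzmc or Cd3e (53 with Gzmc, 10 with Cd3e, 3 with both), which had a median of 9579 UMIs and 5.0% mitochondrial UMIs, beside 217 cDC1 (at least 3 UMIs of Xcr1) and beside all 3923 kept cells outside both lymphocyte gates, with a median of 8716 UMIs. Expression is given as CPM, the summed UMIs of a gene in a group scaled to a total of 1000000. A gene was considered in a comparison at 50 CPM in the higher group and 20 UMIs over both, and is called higher or lower from a ratio of 2, a fixed size and no test. The gene lists were chosen with earlier results of these data known. None of the 6 barcodes that the libraries shared was an NK cell.

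**Figure D1:**
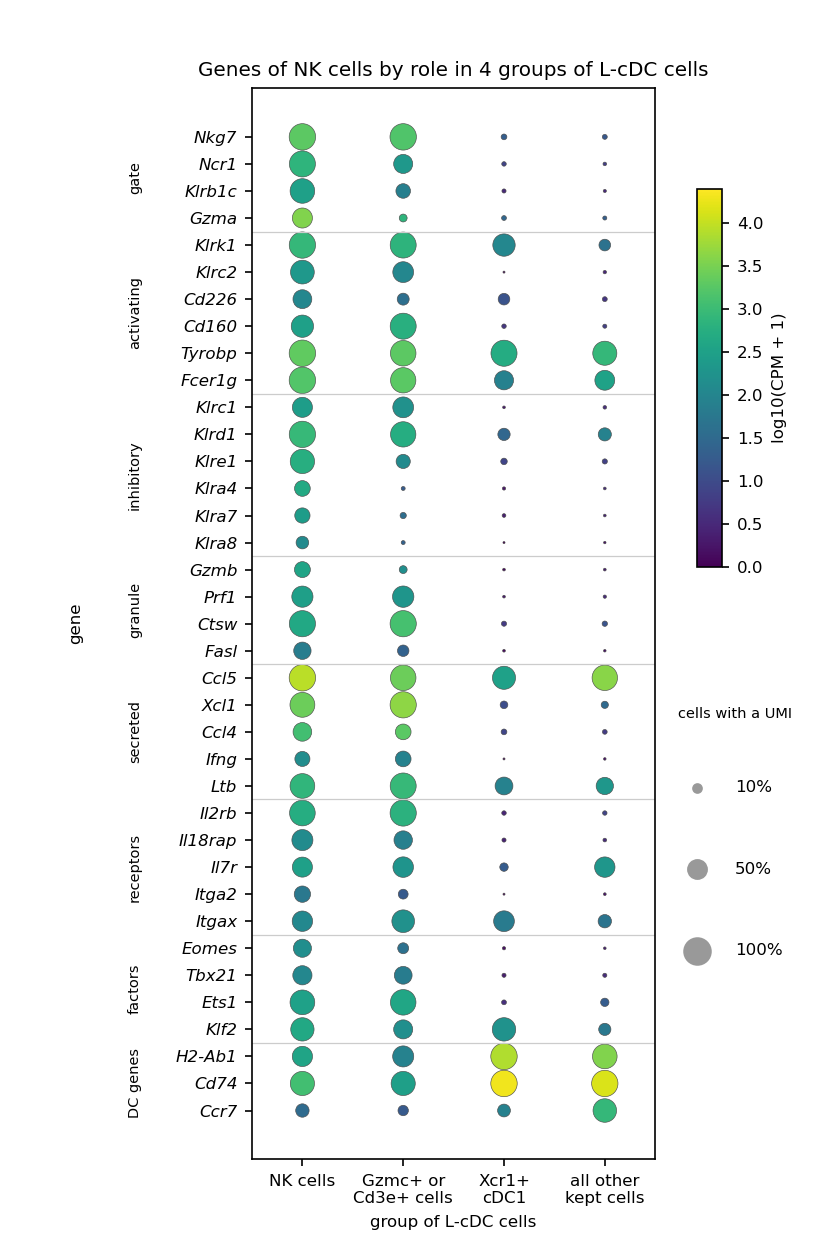
Genes grouped by role (rows) in NK cells, Gzmc+ or Cd3e+ cells, Xcr1+ cDC1 and all other kept cells of L-cDC (columns); colour is log10(CPM + 1) and dot area the percent of cells with a UMI. Xcl1 had 2604 CPM in NK cells against 31.1 in the other kept cells, while Cd74 had 1146 against 14242. The block labelled inhibitory also holds Klra4 and Klra8, which are activating members of the Ly49 family.

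Against the other kept L-cDC cells, 876 of 3201 genes were at least 2-fold higher in NK cells (27.4%) and 584 at least 2-fold lower (18.2%; 45.6% either way), with a median log2 ratio over all considered genes of 0.40. The groups differ in lineage and were separated by their own counts, so these values describe the cells. Among genes outside the lists, the lymphocyte genes Ms4a4b, Gimap4 and Lck (a kinase of antigen receptor signalling) had 1194, 544 and 269 CPM in NK cells, against 14.7, 6.37 and 3.28 in the other cells. H2-M2, a class Ib MHC gene, was 114-fold lower, at 4.12 and 471 CPM. Of the activating receptors and adaptors, 14 of the 15 considered genes were higher, beside 27.4% of all considered genes, among them Ncr1 and Klrb1c of the gate. Klrk1, which encodes the stress-ligand receptor NKG2D, had 847 CPM in NK cells, against 691 in Gzmc+ or Cd3e+ cells, 107 in cDC1 and 45.4 in the other cells. Klrc2 (NKG2C) had 222 CPM in NK cells and 1.96 in the other cells, a ratio of 113 (86.2 to 149). Sh2d1a, the adaptor SAP of the SLAM receptors, had 112 and 0.619 CPM. The adaptors Tyrobp (DAP12) and Fcer1g were in 100% of NK cells, at 1 to 56 and 2 to 52 UMIs per cell. Both are also genes of myeloid cells, and their ratios to the other cells were 2.58 and 4.69. Slamf7 was the exception, at 157 CPM in NK cells and 377 in the other cells, 2.41-fold lower. Fcgr3, the low-affinity Fc receptor CD16 that NK cells use for antibody-dependent killing, had 28 UMIs in all and was found in 20.4% of NK cells.

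Inhibitory receptors were present in the same cells. Klrd1, the CD94 partner of the NKG2 receptors, had 0 to 36 UMIs per NK cell with a median of 8, and 888 CPM in NK cells against 88.3 in the other cells. Klrc1, which encodes the inhibitory NKG2A, was found in 57.3% of NK cells (thinned to 2000 UMIs per cell, 40.8%) and in 0.461% of cDC1, with a ratio to the other cells of 91.8 (73.1 to 116). Klre1 had 581 CPM in NK cells and 6.0 in the other cells, a ratio of 96.9 (82.9 to 114). All 6 considered genes of this list were higher in NK cells, again beside 27.4% of all genes. The checkpoint receptors Pdcd1, Tigit and Havcr2 had 0, 2 and 1 UMIs over the 103 cells, and Lag3 had 26 UMIs.

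The Ly49 genes were patchy. Of 11 Ly49 genes, 6 had at least 10 UMIs over the NK cells, and those 6 were the considered members. All 6 were higher than in the other cells, by 52.4-fold (Klra1) to 186-fold (Klra4), beside 27.4% of all considered genes. Klra4 (Ly49D, an activating member) was found in 35.0% of NK cells (25.8 to 45.0%; thinned, 29.1%) and 0.922% of cDC1, with 0 to 49 UMIs per cell, and 8 cells held at least 50% of its UMIs. Klra7 (Ly49G) was found in 33.0%, Klra1 in 25.2%, Klra8 (Ly49H, a receptor for a cytomegalovirus protein) and Klra9 in 22.3% each, and Klra3 in 15.5%. At least 1 of the 6 was seen in 58 cells and at least 2 in 43, and 45 cells showed none (57 after thinning). Of the 103 cells, 24 showed a Ly49 gene and Klrc1, 34 a Ly49 gene only, 35 Klrc1 only and 10 neither; after thinning these counts were 11, 35, 31 and 26. Ly49 genes are close copies of each other, so reads can be split between them and the level of each is uncertain. Ly49 gene content also differs between mouse strains, and the strain is not given in the sources used here; the genes are named as in the reference. Of the 23 Klr genes of the lists, 22 lie in the NK gene complex at chr6:128609227-131247362 (GRCm38), Klrb1c of the gate among them. Without Klrb1c, 15 of the other 21 were considered. All 15 were at least 2-fold higher than in the other cells, beside 27.4% of all considered genes. Summed over the 21, the level was 4570 CPM in NK cells, 2293 in Gzmc+ or Cd3e+ cells and 199.9 in the other cells.

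Some granule genes were found in nearly every NK cell and others in part of them. Gzmb (chr14:56258838-56262260, minus strand), the protease that starts apoptosis in targets, had 369 CPM in NK cells and 1.13 in the other cells, a ratio of 327 (237 to 461), but it was found in 35.9% of NK cells (thinned, 20.4%) and in 0.461% of cDC1. The cell with the most held 20.1% of its UMIs. Prf1, the pore-former perforin, had 294 and 2.29 CPM, a ratio of 129 (101 to 166), and was seen in 64.1% of NK cells (thinned, 30.1%). Gzma itself had 0 to 527 UMIs per cell with a median of 1. By contrast Ctsw, a cathepsin of cytotoxic lymphocytes, was found in 98.1% of NK cells with 0 to 17 UMIs. Fasl, the ligand that triggers Fas, had 68.0 and 0.511 CPM. Of the 13 considered genes of the granule list, 7 were higher, Nkg7 and Gzma of the gate among them, and 4 were lower: Gzmc, by rule, the granzyme inhibitors Serpinb9 and Serpinb6b, and Lamp1. Without these 3 genes of the gate, 5 of 10 were higher and 3 lower, beside 27.4% and 18.2% of all considered genes.

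Of the secreted factors, 6 of 7 considered genes were higher in NK cells, beside 27.4% of all considered genes. Ccl5, a chemokine for T cells and monocytes, was found in every NK cell at 2 to 324 UMIs with a median of 68. It had 8633 CPM in NK cells, 2549 in Gzmc+ or Cd3e+ cells and 4199 in the other cells, which include mature dendritic cells that also make it. Xcl1 (chr1:164931644-164935527, minus strand), the ligand of the cDC1 receptor Xcr1, was found in 88.3% of NK cells (thinned, 73.8%) and in 7.83% of cDC1. Its 0 to 346 UMIs per cell had a median of 8, and its ratio to the other cells was 83.7 (78.0 to 89.8). That log2 ratio of 6.39 was 5.70 with a minimum of 5 Nkg7 UMIs and 5.69 with a minimum of 4 for the receptor sum. Ccl4, a chemokine for leukocytes, had 1152 CPM in NK cells and 4.87 in the other cells, but it was found in 49.5% of NK cells, and 1 cell with 292 UMIs held 26.1% of them. Its log2 ratio of 7.89 was 6.09 and 6.14 under the same stricter limits. Cells that left the gate under these limits were counted among the other cells. Ifng was found in 32.0% of NK cells (thinned, 14.6%) and had 0 UMIs in cDC1, with 36.8% of its UMIs in 1 cell. Among the 51 cells with Ccl4, 22 had Ifng (43.1%, 29.3 to 57.8%), against 11 of the 52 without (21.2%, 11.1 to 34.7%). These intervals overlap, and the split was not repeated after thinning. Csf2 had 35 UMIs, 21 of them in 1 cell, and Il10 had 0.

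Receptors for IL-15 and IL-18, cytokines that activate NK cells, were both present. Il2rb, a chain of the receptors for IL-2 and IL-15, had 524 CPM in NK cells and 6.81 in the other cells, a ratio of 77.0 (66.1 to 89.8). Il18r1 and Il18rap, both chains of the IL-18 receptor, had 156 and 128 CPM in NK cells, against 5.94 and 2.34 in the other cells. Of 12 considered cytokine receptors, 4 were higher and 3 lower, shares close to the 27.4% and 18.2% of all considered genes. Il7r, whose locus drives the reporter, had 299 CPM in NK cells, 185 in Gzmc+ or Cd3e+ cells and 205 in the other cells. It was found in 57.3% of NK cells (47.2 to 67.0%; thinned, 34.0%) and in 9.68% of cDC1, so 44 of the 103 cells of this tdTomato+ sort showed no Il7r UMI. Its log2 ratio of 0.54 to the other cells was 1.08 with dividing cells left out.

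Of the homing receptors and integrins, 12 of 15 considered genes were higher and 1, Ccr7, was lower, beside 27.4% and 18.2% of all considered genes. Itgax, which encodes the CD11c used for the bead enrichment, had 113 CPM in NK cells, 64.6 in cDC1 and 49.1 in the other cells. It was found in 59.2% of NK cells (thinned, 24.3%) and 61.3% of cDC1. The shares before thinning stood at unlike median depths, 7522 UMIs in NK cells and 16440 in cDC1. Itga2, the CD49b of circulating NK cells, had 57.7 and 0.726 CPM, and Itga1, the CD49a of tissue-resident cells, had 23.7 and 8.26.

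Among the transcription factors, 8 of 14 considered genes were higher and none lower, beside the same 27.4% and 18.2%. Eomes had 145 CPM in NK cells and 1.40 in the other cells, a ratio of 104 (75.1 to 146), and its relative Tbx21 (T-bet) had 108 and 2.61. Eomes was found in 46.6% of NK cells (thinned, 12.6%), Tbx21 in 52.4% (thinned, 21.4%), both in 28 cells and neither in 29. Ets1 was found in 87.4% with 313 CPM in NK cells and 17.7 in the other cells. Eomes without Itga1 was seen in 42 cells, Itga1 without Eomes in 12 and both in 6. By the stage markers, 51 cells showed Cd27 only, 8 both Cd27 and Itgam (CD11b), 7 Itgam only and 37 neither; after thinning the counts were 26, 2, 5 and 70, so the division moved with depth. Some ratios to the other cells depended on which cells stood in that group. With the limits on Xcr1 and Fscn1 lifted, the log2 ratio was 8.12 for Eomes against 6.70 with them, 10.26 for Gzmb against 8.35, 8.26 for Prf1 against 7.01, 7.19 for Il2rb against 6.27 and 6.69 for Il18rap against 5.77.

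Markers of other cells were checked over whole lists. The ILC1 list, which includes Il7r, summed to 700 CPM in NK cells, 751 in Gzmc+ or Cd3e+ cells, 115 in cDC1 and 1205 in the other cells. Of its 5 considered genes, 2 were higher than in the other cells and 2 lower, beside 27.4% and 18.2% of all considered genes. Of 9 genes of ILC2 and ILC3, 7 had 0 UMIs, Il1rl1 among them. The 4 neutrophil and 5 erythroid markers were at 0. The T cell list summed to 761 CPM in NK cells, 2290 in Gzmc+ or Cd3e+ cells, 264 in cDC1 and 127 in the other cells. Of its 4 considered genes, Trbc1, Trbc2 and Cd28 were higher than in the other cells and Cd8a lower, beside 27.4% and 18.2% of all considered genes. Trbc1 and Trbc2 were in 75.7% and 52.4% of NK cells; transcripts of these constant regions are known from NK cells without a rearranged receptor. Cd28, the costimulatory receptor of T cells, had 57 UMIs in 33 NK cells, or 58.8 CPM against 1.02 in the other cells. Cd3d was in 10.7% of NK cells, Cd3g in 8.74% and Trac in 5.83%, and 10 cells had 2 or more UMIs of these 3 genes. Trdc had 25 UMIs in 19 cells, while Cd8b1, Cd6 and Themis were at 0 besides Cd3e, which the gate removed.

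Of the B cell list, Cd79a and Pax5 were at 0, but Ighm had 102 UMIs in 56 NK cells. Ighm was thus in 54.4% of NK cells and 85.3% of cDC1, at 105 CPM in NK cells and 263 in the other cells. The B cell list summed to 123 CPM in NK cells, 130 in Gzmc+ or Cd3e+ cells, 163 in cDC1 and 376 in the other cells. The macrophage list had 240, 70.0, 259 and 489 CPM in the same order, with 20.1% of the 204 Lyz2 UMIs of NK cells in 1 cell. The list of plasmacytoid dendritic cells had 262, 281, 212 and 467 CPM. The part of these transcripts in the results was not tested. The conventional dendritic cell list summed to 2943 CPM in NK cells, 1040 in Gzmc+ or Cd3e+ cells, 62684 in cDC1 and 35060 in the other cells. In NK cells 9 of its 9 considered genes were lower than in the other cells, beside 18.2% of all considered genes. The list includes Xcr1, which the gate required to be absent. The mature dendritic cell list summed to 145, 70.0, 267 and 3473 CPM in the same order. All 6 of its genes were considered and lower in NK cells than in the other cells, Fscn1 of the gate among them. The MHC class II genes H2-Aa, H2-Ab1 and H2-Eb1 with Cd74 gave 0 to 574 UMIs per NK cell with a median of 6. They reached 10 UMIs in 25 cells, whose median depth was 12845 UMIs against 6957 in the other 78, and 100 UMIs in 4. The part of these transcripts in the results was not tested beyond the values without those cells.

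The Gzmc+ or Cd3e+ lymphocytes share Nkg7 with the NK cells, and the comparison asks where these cytotoxic cells of 1 library differ. Of 2974 considered genes, 180 were at least 2-fold higher in NK cells (6.05%) and 144 at least 2-fold lower (4.84%; 10.9% either way), with a median log2 ratio of 0.02. NK cells were higher in all 6 considered Ly49 genes, in Ncr1 and in the integrin genes Itga4 and Itga2, and lower in the integrin genes Itgae and Itga1. Of 16 considered homing receptors and integrins, 3 were higher and 3 lower, beside 6.05% and 4.84% of all considered genes. Klra4 had 449 CPM in NK cells and 17.5 in Gzmc+ or Cd3e+ cells, where its 12 UMIs lay in 1 cell, a ratio of 25.7 (14.6 to 50.1). Klra7 had 262 and 36.5 CPM, Klra8 120 and 21.9, and Klre1 581 and 120. Ncr1, in the rule for NK cells only, had 740 and 217 CPM.

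The integrin gene Itga4 had 271 CPM in NK cells and 61.3 in Gzmc+ or Cd3e+ cells, a ratio of 4.43 (3.19 to 6.29), and Itga2 57.7 and 16.0. Klf2, a factor that keeps lymphocytes in circulation, had 433 and 147 CPM. Eomes had 145 and 40.8 CPM, a ratio of 3.56 (2.36 to 5.55). In the opposite direction, Itgae (CD103, an epithelial retention integrin) had 2 UMIs in NK cells, or 2.06 CPM, against 296 CPM in Gzmc+ or Cd3e+ cells, a ratio of 0.00696 (0.000838 to 0.0255). Itga1 had 23.7 and 174 CPM, 7.32-fold lower, and Cx3cr1, a chemokine receptor, 21.6 and 108 CPM, 4.99-fold lower. Tnfsf10, the death ligand TRAIL that marks ILC1, had 53.6 and 246 CPM, 4.6-fold lower. Ikzf2 (Helios) had 55.7 and 245 CPM, and Lag3 26.8 and 114. Genes of the ILC1 marker list stood on both sides: Itga1 and Tnfsf10 were lower in NK cells, Gpr183 and Tmem176b higher, and Cxcr6 and Il7r within 2-fold. A limit of 5% mitochondrial UMIs left out 9 of the 103 NK cells and a larger part of the Gzmc+ or Cd3e+ cells, whose median was 5.0%. With this limit, the log2 ratio was 4.03 for Klra4 against 4.68 with all cells and 3.5 for Klra7 against 2.84. It was 1.23 for Eomes against 1.83, -2.06 for Itga1 against -2.87 and -6.34 for Itgae against -7.17. Over all alternatives Klra4 ranged from 4.03 to 6.49, Klre1 from 1.74 to 3.08, Eomes from 1.23 to 3.47 and Itgae from -7.79 to -4.10, each with its direction and call kept.

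**Figure D2:**
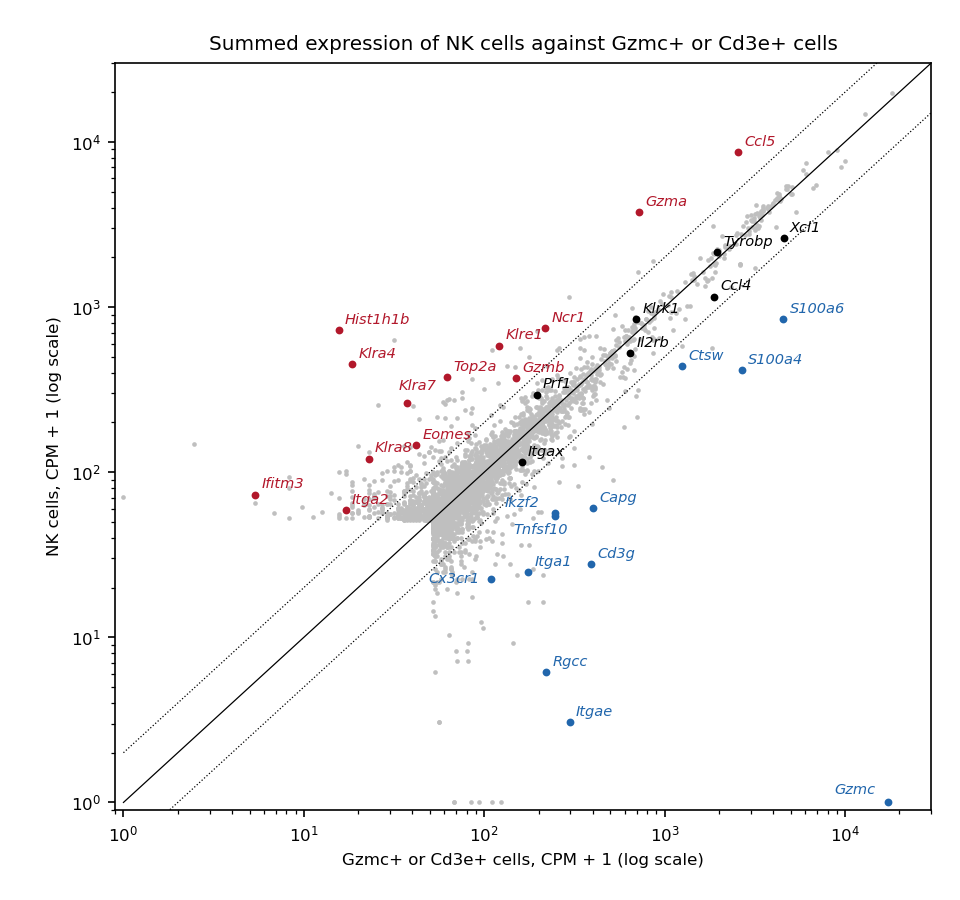
Summed expression of genes considered in NK cells (vertical axis) against Gzmc+ or Cd3e+ cells (horizontal axis), both as CPM + 1 on log scales; each point is 1 gene, the solid line is equality and the dotted lines a ratio of 2 either way. Klra4 lies far above the line at 449 against 17.5 CPM and Itgae far below it at 2.06 against 296 CPM, while Klrk1 and Tyrobp lie close to it.

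S100a6, S100a4 and Capg were chosen after their values had been seen. The calcium-binding genes S100a6 and S100a4 had 845 and 414 CPM in NK cells, against 4543 and 2684 in Gzmc+ or Cd3e+ cells, 5.37-fold and 6.48-fold lower. S100a6 had 0 to 57 UMIs per NK cell with a median of 4. Capg, an actin-capping protein, had 59.8 and 398 CPM. Ptger3, a prostaglandin E2 receptor, had 0 UMIs in NK cells and 123 CPM in Gzmc+ or Cd3e+ cells, at least 39.6-fold lower against a floor of 3 UMIs over the group. Rgcc, a cell cycle regulator, had 5.15 and 219 CPM, 42.4-fold lower.

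Of 7 considered secreted factors, 1 was higher and none lower, beside 6.05% and 4.84% of all considered genes. It was Ccl5, with 8633 CPM in NK cells and 2549 in Gzmc+ or Cd3e+ cells, a ratio of 3.39 (3.22 to 3.57). Xcl1 was lower in NK cells, at 2604 and 4562 CPM, and Ccl4 likewise at 1152 and 1877 CPM, both within 2-fold; with a minimum of 5 Nkg7 UMIs the log2 ratio of Xcl1 was -1.05. Among granule genes outside the rules, Gzmb had 369 and 149 CPM, a ratio of 2.48 (1.99 to 3.12); with cells of at most 5% mitochondrial UMIs its log2 ratio of 1.31 was 0.65, below the call, and without the cells rich in MHC class II it was 2.57. Serpinb9 and Serpinb6b, which protect a killer from its own granzymes, were higher in NK cells at 3.14-fold and 2.88-fold. Ctsw was 2.86-fold lower, at 436 and 1248 CPM. Prf1, at 294 and 194 CPM, was within 2-fold. Irf8 had 236 and 77.3 CPM, and its log2 ratio of 1.61 was 0.98 under the same mitochondrial limit.

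Of the 10 cell cycle genes, 7 were at least 2-fold higher in NK cells, beside 6.05% of all considered genes. Top2a, a topoisomerase of dividing cells, had 375 CPM in NK cells and 61.3 in Gzmc+ or Cd3e+ cells, and its log2 ratio of 2.61 was 1.88 with a minimum of 1 Nkg7 UMI and 1.35 with dividing cells left out. Hist1h1b, a histone gene, had 727 and 14.6 CPM, with 32.8% of its UMIs in 1 NK cell. Dividing cells, with 5 or more UMIs of Mki67, Top2a, Birc5, Cdk1 and Rrm2 together, were 18 of 103 NK cells (17.5%, 10.7 to 26.2%) and 7 of 60 Gzmc+ or Cd3e+ cells (11.7%, 4.82 to 22.6%), and these intervals overlap. Only 3 NK cells had 3 to 7 such UMIs, so few lay near this limit. The 18 were deeper than the other 85, with medians of 16457 and 7196 UMIs. Dendritic cell transcripts moved with this comparison too: H2-Ab1 had 365 and 84.6 CPM and Cd74 1146 and 295. Ifitm3, 16.5-fold higher, had 28.6% of its UMIs in 1 NK cell, and Cox6a2, at 68 and 0 UMIs, had 60.3% in 1.

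The NK cells were also divided by their Gzma UMIs. This division was chosen after the values had been seen, and Gzma is a gene of the gate, so it describes the cells and supports nothing: a Gzma-low cell had to pass on Ncr1 and Klrb1c. Gzma had 0 UMIs in 44 cells, 1 UMI in 9 and 2 in none, 3 to 5 in 6 and 30 or more in 28. The 50 cells with 3 or more (Gzma-high, median 39.5) were set against the 53 with 0 or 1 (Gzma-low). These are ranges of 1 gene, and whether they part cell types was not tested. Median depth was 7635 UMIs in Gzma-high and 7278 in Gzma-low cells, and mitochondrial shares were 3.03% and 3.96%. Of 2984 considered genes, 190 were at least 2-fold higher in Gzma-high cells (6.37%) and 78 at least 2-fold lower (2.61%; 8.98% either way), with a median log2 ratio of 0.15. With mitochondrial, ribosomal protein and immunoglobulin genes left out of the totals the counts were 233 higher and 207 lower.

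**Figure D3:**
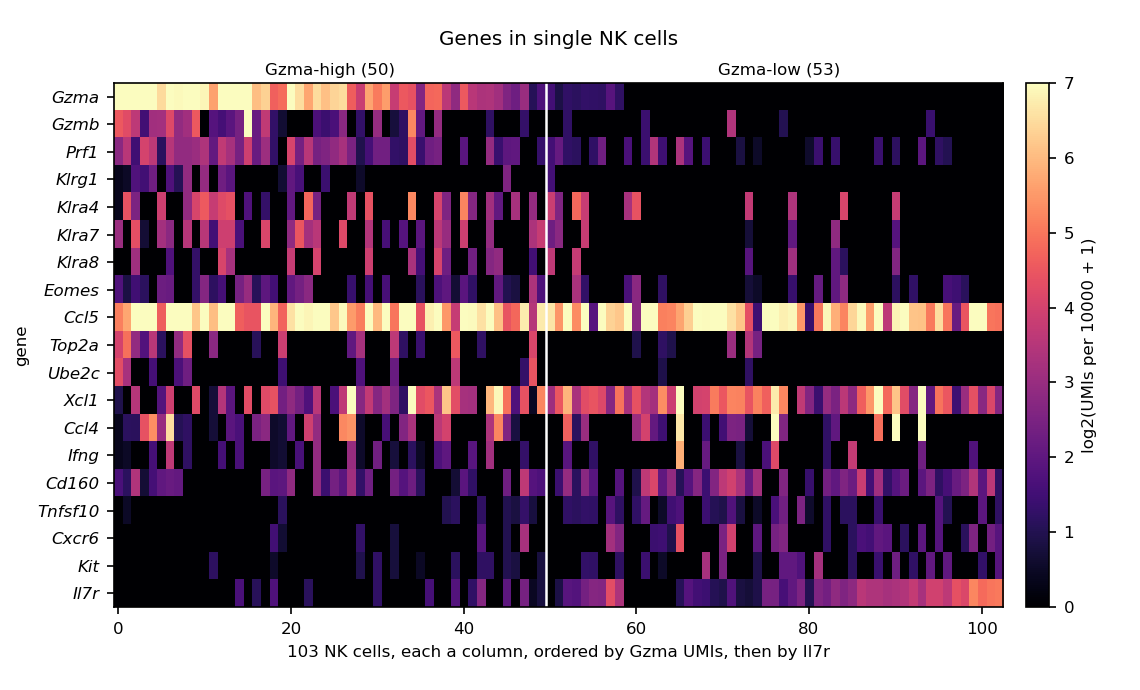
Genes (rows) in each of the 103 NK cells (columns), as log2(UMIs per 10000 + 1); cells run from the most Gzma UMIs at the left to the least, cells with equal Gzma in the Gzma-low range by Il7r, and the white line parts 50 Gzma-high from 53 Gzma-low cells. Ccl5 is present on both sides, Gzmb and Klrg1 lie mostly left of the line and Il7r mostly right of it.

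Of the late-stage list, 6 of 7 considered genes were higher in Gzma-high cells, beside 6.37% of all considered genes. Gzmb had 664 CPM in Gzma-high and 18.1 in Gzma-low cells, a ratio of 36.8 (18.5 to 85.8), and was found in 64.0% and 9.43% of cells. Klrg1, an inhibitory receptor of mature NK cells, had 77.8 and 2.26 CPM, or 41 UMIs in 17 cells against 1 UMI in 1 cell, a ratio of 34.5 (5.85 to 1394). S1pr5, which lets mature NK cells leave tissues, had 53.1 and 6.77 CPM, a ratio of 7.84 (2.42 to 40.3). Zeb2, a factor of terminal maturation, had 148 and 42.9 CPM, a ratio of 3.45 (2.07 to 6.03). Ly6c2 had 315 and 133 CPM. Cma1, a mast cell chymase gene, had 27 UMIs in Gzma-high cells and 0 in Gzma-low cells, at least 7.56-fold higher. Irf8, the 7th, had 300 and 160 CPM. Prf1, outside that list, had 455 and 102 CPM, a ratio of 4.48 (3.25 to 6.31), and was found in 86.0% and 43.4% of cells (thinned, 44.0% and 17.0%). Serpinb9 had 169 and 49.7 CPM. With the cells of 10 or more MHC class II UMIs left out, the log2 ratio of Gzmb was 4.97 and that of Prf1 2.21, against 5.20 and 2.16 with all cells.

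Il7r was lower in Gzma-high cells. It had 51.2 CPM in Gzma-high and 594 in Gzma-low cells, 11.6-fold lower (7.79-fold to 17.9-fold), and was found in 26.0% and 86.8% of cells (thinned, 4.0% and 62.3%). The cells with the most Il7r, 24 UMIs at the highest, were all Gzma-low, while no Gzma-high cell had more than 5. Of the early-stage list, 4 of 12 considered genes were lower in Gzma-high cells and none higher, beside 2.61% and 6.37% of all considered genes: Il7r, the chemokine receptor Cxcr3 (41.7 and 135 CPM), the stem cell factor receptor Kit (28.5 and 94.8) and the factor Tcf7 (81.6 and 199). Cd27 had 91.1 and 147 CPM, within 2-fold. Of the ILC1 list, 4 of 5 considered genes were lower: Il7r, Gpr183, Tnfsf10 (22.8 and 90.3 CPM, 3.97-fold) and Cxcr6 (34.1 and 176 CPM, 5.16-fold). Itga1, too low to be considered, had 9 and 14 UMIs. Il7r and Cxcr6 were found together in 25 of the 103 cells. Cd96, Ikzf2 and Tnfsf8 were lower as well, at 3.82-fold, 3.75-fold and 6.90-fold.

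**Figure D4:**
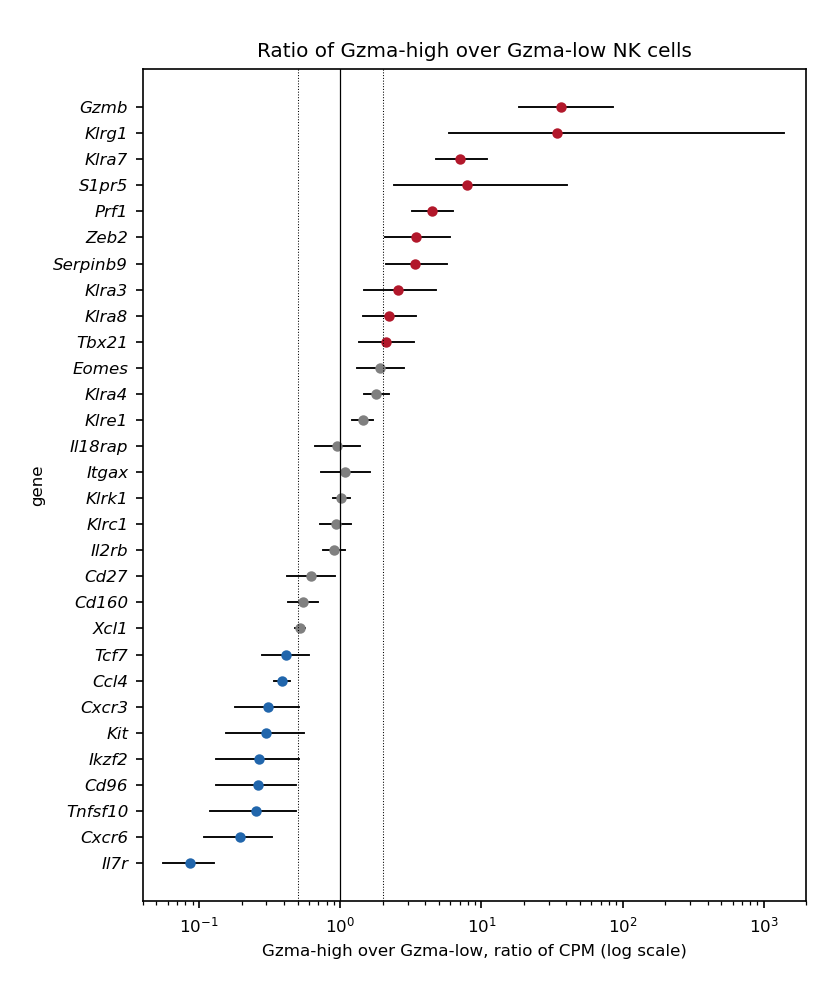
Ratio of Gzma-high over Gzma-low NK cells for 30 genes (rows), as CPM over CPM on a log scale; lines are exact 95% intervals of counting error, dotted lines mark a ratio of 2 either way, and red, grey and blue points are ratios of 2 or more, within 2-fold, and 0.5 or less. Gzmb stands at 36.8 and Il7r at the low end, with Klrk1, Klrc1 and Il2rb near 1.

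Several receptors found in most NK cells were within 2-fold across this division. Klrk1 had 854 CPM in Gzma-high and 840 in Gzma-low cells, Il2rb 501 and 551, Klrc1 260 and 280, Itgax 118 and 108, and Il18rap 125 and 131. Tbx21 had 142 and 67.7 CPM, and its log2 ratio of 1.07 fell to 0.97 with the other totals and to 0.77 without the cells rich in MHC class II. Eomes had 186 and 97.1 CPM, within 2-fold, and its log2 ratio was -0.03 with the limit at 5 UMIs of Gzma. Ccl5 had 9324 and 7811 CPM. Xcl1 had 1831 and 3524 CPM, within 2-fold, and was found in 80.0% and 96.2% of cells. Ccl4 was 2.57-fold lower in Gzma-high cells, at 672 and 1725 CPM, although it was found in 62.0% of them and 37.7% of Gzma-low cells; without the cells rich in MHC class II its log2 ratio was -0.95. Ifng was likewise found in more Gzma-high cells (44.0% and 20.8%) at a lower level (101 and 181 CPM), and after thinning its shares were 12% and 17.0%. Such orders of level and share were opposite, so no order is read from them.

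Ly49 genes were found in more of the Gzma-high cells. At least 1 of the 6 was seen in 41 of 50 Gzma-high cells (82.0%, 68.6 to 91.4%) and 17 of 53 Gzma-low cells (32.1%, 19.9 to 46.3%). After thinning the shares were 66.0% and 24.5%. At least 2 were seen in 62.0% and 22.6%. Klra7 had 431 and 61.0 CPM, a ratio of 7.07 (4.73 to 11.0), Klra3 98.7 and 38.4, and Klra8 159 and 72.2. Klra4, Klra1 and Klra9 were within 2-fold. Thus 3 of 6 considered Ly49 genes passed the ratio of 2, beside 6.37% of all considered genes. The list had a median log2 ratio of 0.99 against 0.15 for all genes.

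**Figure D5:**
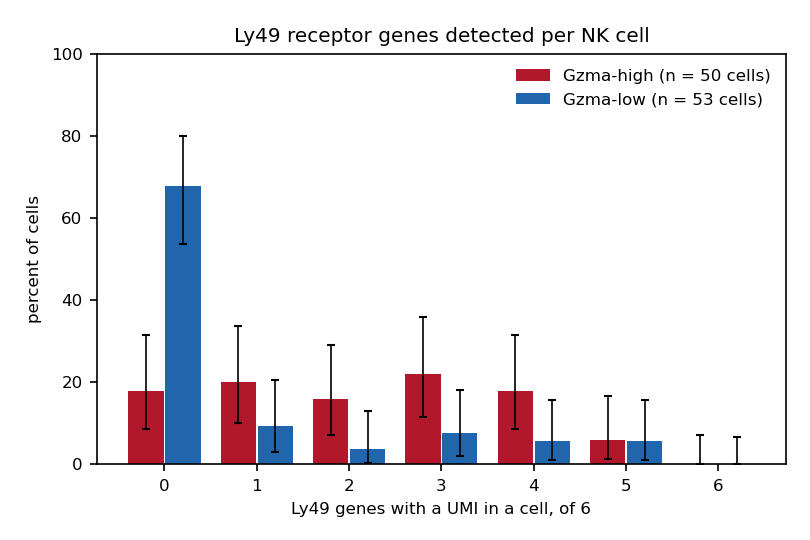
Percent of Gzma-high (red, 50 cells) and Gzma-low (blue, 53 cells) NK cells by the number of 6 Ly49 genes with a UMI; error bars are exact 95% intervals. No Ly49 gene was seen in 18% of Gzma-high and 67.9% of Gzma-low cells.

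Of the cell cycle list, 7 of 10 genes were at least 2-fold higher in Gzma-high cells, beside 6.37% of all considered genes, such as Mki67 at 448 and 61.0 CPM and Top2a at 626 and 76.8. Dividing cells were 14 of 50 Gzma-high (28.0%, 16.2 to 42.5%) and 4 of 53 Gzma-low cells (7.55%, 2.09 to 18.2%). Ube2c, the gene with the highest ratio at 37.8, had 33.7% of its UMIs in 1 NK cell. With dividing cells left out, no Ube2c UMI remained in Gzma-low cells, which were set to the floor of 3 counts. Fewer UMIs than this floor remained in Gzma-high cells, so the log2 ratio of -1.09 comes from the floor and shows no reversal. The MHC class II UMIs lay unevenly over the cells. H2-Ab1 had 522 and 178 CPM and Cd74 1472 and 759 CPM, but the median was 6 UMIs of these genes per cell in both ranges, and 10 or more were found in 12 of 50 and 13 of 53 cells. In Gzma-high cells 3 cells held 1315 of the 1732 MHC class II UMIs (75.9%), and in Gzma-low cells 1 cell held 136 of the 638 (21.3%). T cell UMIs of 2 or more were found in 4 of 50 and 6 of 53 cells. With dividing cells left out, the log2 ratio of Gzmb was 5.91, that of Klra7 2.78 and that of Il7r -3.07. Over all alternatives the log2 ratio of Gzmb ranged from 3.52 to 6.62, that of Klrg1 from 3.15 to 5.35, that of Klra7 from 1.41 to 4.11, that of Top2a from 1.86 to 5.14 and that of Il7r from -3.90 to -2.68. The values of Klra4 and Xcl1, within 2-fold with all cells at 0.84 and -0.94, ranged from 0.75 to 2.26 and from -1.08 to -0.18.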

How the data were processed

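The authors deposited UMI counts as whole numbers without normalization. Per the file headers they come from Cell Ranger 6.1.2. The build was GRCm38 (mm10), per the submitters' processing notes. Kept barcodes had at least 500 genes and at most 10% mitochondrial UMIs: 4086 of 4939 for L-cDC, 5848 of 6674 for M-cDC. Median depth of all kept cells was 8700 UMIs in L-cDC and 7838 in M-cDC.

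Counts were summed per group and scaled to its total (CPM), with exact Poisson intervals for levels, exact conditional binomial intervals for ratios and Clopper-Pearson intervals for shares, all at 95%. A group at 0 was set to a floor of 3 counts. For shares, each cell was also thinned to 2000 UMIs at random, which left out 182 of the 3923 other kept cells and no NK cell. Doublets were not removed from the main values. Scrublet, run per library at an expected rate of 0.08, set thresholds of 0.6353 for L-cDC and 0.2584 for M-cDC, and above the lower of these lay 143 and 248 cells, 4 of them NK cells. With 1 library per group, no test was made. The scripts were tested on simulated data.

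The members and gene lists were chosen with earlier results of these data known. Genes were named if they were list members with at least 10 UMIs over the NK cells, or the 25 highest and 12 lowest against the other cells and the 12 highest and 12 lowest against the Gzmc+ or Cd3e+ cells, in each case among considered genes whose interval leaves out 1, without gene models, the genes of the gates and T cell receptor, hemoglobin, immunoglobulin, mitochondrial and ribosomal protein genes. The genes of the Gzma division, and genes named for being at or near 0, were chosen after their values had been seen. Coordinates came from GENCODE vM21 (GRCm38) by Ensembl identifier and promoters from RefSeq by symbol, 5 of 5 matched. Scrublet ran in scanpy 1.11.5, intervals in scipy 1.17.1, figures in matplotlib 3.10.9 and tables in pandas 2.3.3 with numpy 2.4.6, under Python 3.11.15.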

Additional observations from a re-analysis of the deposited data

How the results depend on the processing

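No paired analysis was possible because each sort gave 1 library and no test was made. The NK gate held 78 to 124 cells over the alternatives for its limits, filters and doublets. Its share was 1.91% of kept L-cDC cells without the cells of 10 or more MHC class II UMIs, and M-cDC held 1 cell without the limits on Xcr1 and Fscn1. Against the other cells, 1348 genes were higher with mitochondrial, ribosomal protein and immunoglobulin genes left out of the totals, which moved the median log2 ratio of all genes by 0.11, and 1718 higher and 1000 lower at minimums of 20 CPM and 10 UMIs. Against the Gzmc+ or Cd3e+ cells the same alternatives gave 271 higher, and 488 higher with 359 lower.

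Alternatives for Gzma-high against Gzma-low cells were chosen after seeing the data. Without the cells rich in MHC class II, 315 genes were higher and 183 lower. Thinning gave 118 higher, leaving out dividing cells gave 134 lower, and the other totals gave 207 lower. With dividing cells left out, the log2 ratio of Ube2c was -1.09, a value set by the floor of 3 counts and not a reversal. Thinning lowered the shares of cells with a UMI to 44.7% for Gzma, 20.4% for Gzmb, 30.1% for Prf1, 12.6% for Eomes, 21.4% for Tbx21, 34.0% for Il7r, 24.3% for Itgax, 73.8% for Xcl1 and 14.6% for Ifng, and gave 26, 2 and 70 cells with Cd27 only, both and neither of Cd27 and Itgam. Of the other alternative values, 122 of summary results and 673 of named genes stayed within 1.5-fold or the main interval and 146 of named genes moved past it in the same or an uncalled direction. The causes were not tested. Counting depth limits genes with few UMIs and every share in single cells.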
